A study of Mus musculus with 12 samples.

Results

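The genes described here sense viral RNA, carry the interferon signal or answer it. Their levels were followed in lungs of mouse embryos at E14.5 that carried floxed Dicer or Yy1 alleles and Shh-Cre, which acts in Shh-expressing cells. The genes were chosen by name as a list of 40, with earlier results of these data known. On the array, 38 of the 40 were each represented by a probe set annotated with that gene alone, out of 22180 genes measured in the same way, and where a gene had several such probe sets the one with the highest mean over all arrays was used. Of the other listed genes, Irf5 lay on a probe set shared with its neighbour Tnpo3, and Ifi44 was not analysed here. By role, the 38 genes are 6 cytosolic RNA sensors and adaptors, 1 RNA editing enzyme, 9 Toll-like receptors, 6 transcription factors, 14 interferon-stimulated genes and 2 interferon receptor chains.

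Whole-lung RNA was hybridised to 12 single-channel arrays of 3 genotypes with 4 specimens each: Dicer mutants (Dicerflox/flox;Shh+/Cre), Yy1 mutants (Yy1flox/flox;Shh+/Cre) and controls (Shh+/Cre). All 3 genotypes carried the Shh-Cre allele, which places the recombinase in Shh-expressing cells, in the lung the epithelium, while the RNA also came from mesenchyme, vessels and blood cells. The labels name no litter, batch or sex and do not say whether a specimen was 1 embryo, so the p-values measure only the spread between these specimens. Values are log2 signals as deposited, and a gene was called when its Benjamini-Hochberg adjusted p over all genes was under 0.05 in the limma fit.

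Cells recognise viral RNA with helicases in the cytosol, such as RIG-I and MDA5, and with Toll-like receptors in endosomes. Both routes activate interferon regulatory factors, which switch on type I interferon genes, and secreted interferon acts through the IFNAR1 and IFNAR2 chains to raise a large group of interferon-stimulated genes. Dicer cuts double-stranded RNA and makes mature microRNAs, and Yy1 is a zinc finger transcription factor, so the question was whether the loss of either raised sensors, Toll-like receptors or interferon-stimulated genes.

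The mutants and the tissue were checked first. Dicer1 was lower in the Dicer mutants (log2 difference -0.61, SE 0.0953, adjusted p = 0.00127), while Yy1 averaged 8.84 ± 0.10 in the Yy1 mutants and 9.03 ± 0.07 in the controls (SD, n = 4 each), a difference of -0.19 that was not called (adjusted p = 0.125). For Yy1, every Yy1 mutant array lay below every control (unadjusted p = 0.0139 in the limma fit), as was so for 7.05% of all genes. Whether the Dicer1 and Yy1 probe sets lie inside the deleted exons is not given in the sources used here. The lung epithelial genes Nkx2-1 and Sftpc read at least 8.15 and 8.52 on every array. The Y-linked control genes were raised on 3 mutant arrays (Yy1 mutants 2 and 3 and Dicer mutant 4), and counts without these arrays are given below.

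In the Dicer mutants, 8 of the 38 genes were higher than in the controls and 0 were lower. Over all genes, calls made up 8.75%, of which 4.78% were higher and 3.97% lower. The 8 were the cytosolic sensors Ddx58 and Ifih1, the endosomal receptor Tlr7, the transcription factor Irf1, the interferon-stimulated genes Rsad2 and Bst2, and both chains of the type I interferon receptor. Their differences were modest, 0.25 to 0.84 on the log2 scale, and most interferon-stimulated genes, Isg15, Mx1, Mx2 and Ifit1 to Ifit3 among them, were not called. At an unadjusted p under 0.05, 15 genes were higher and 2, Ifit1 and Usp18, were lower. The median difference over the 38 genes was 0.13, against -0.03 over all genes. In whole-lung RNA, a change in how many cells of a type are present and a change in RNA per cell cannot be told apart.

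Among the Yy1 mutants, 3 of the 38 genes were higher than in the controls (Ddx58, Tlr7 and Ifnar2) and 0 were lower. Over all genes, 6.61% were called here, 2.77% higher and 3.84% lower. At an unadjusted p under 0.05, 9 were higher and 1, Ifit2, was lower. The median over the 38 genes was 0.04, against 0.00 over all genes. Between the mutants, 2 of the 38 genes were called, Ifih1 and Rsad2, both higher in the Dicer mutants. The share of all genes called was 4.96%, with 3.39% higher and 1.57% lower. Of the genes not called there, 6 more were higher and 1, Ddx58, was lower at an unadjusted p under 0.05. The comparisons with control use the same 4 control arrays, so genes called in both are not independent observations.

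**Figure D1:**
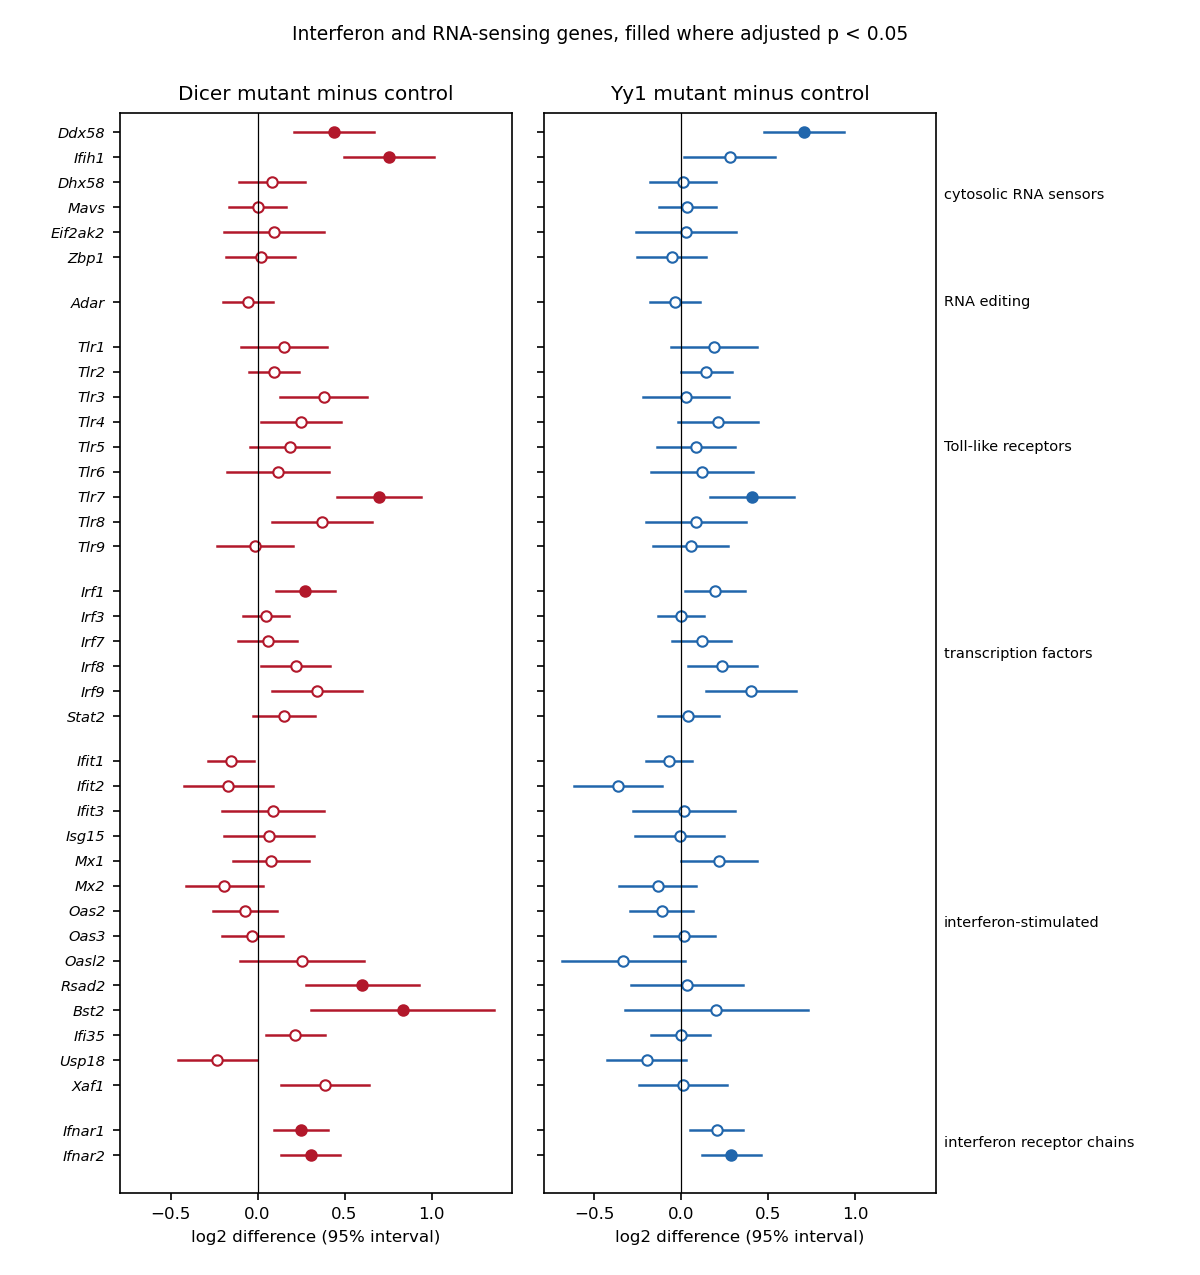
Log2 difference of each of the 38 genes, with its 95% interval, for Dicer mutants minus controls and for Yy1 mutants minus controls, ordered by role, with filled points where the adjusted p was under 0.05. The 8 filled points for the Dicer mutants and the 3 for the Yy1 mutants all lie to the right of 0, while 12 and 14 of the 14 interferon-stimulated genes are open points.

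Among the sensors, Ifih1 had the largest difference from control in the Dicer mutants. It encodes MDA5, a sensor of long double-stranded RNA. Ifih1 read 6.38, 6.76, 6.75 and 6.52 in Dicer mutants 1 to 4, 6.19, 6.43, 6.05 and 5.82 in Yy1 mutants 1 to 4, and 5.88, 5.87, 5.91 and 5.72 in controls 1 to 4. Every Dicer mutant array lay above every control array, and Yy1 mutant 4 lay among the controls. The difference was 0.76 in the Dicer mutants, or 1.69-fold (SE 0.120, adjusted p = 0.00147), and the call held in all 21 alternative fits (adjusted p 0.000328 to 0.0065). For the Yy1 mutants it was 0.28 and was not called (adjusted p = 0.222). Set against the Yy1 mutants directly, the Dicer mutants were higher by 0.48 (SE 0.120, adjusted p = 0.0360), with 1 overlapping array, Yy1 mutant 2. That call was lost without any 1 of Yy1 mutants 1, 3 and 4 or Dicer mutants 2, 3 and 4 (adjusted p 0.0634 to 0.108).

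Ddx58, which encodes RIG-I, a sensor of short RNAs with a 5′ triphosphate, was higher in both mutants. Its levels were 6.97, 7.14, 7.10 and 7.14 in the Dicer mutants, 7.33, 7.48, 7.44 and 7.17 in the Yy1 mutants, and 6.81, 6.64, 6.82 and 6.33 in the controls. No mutant array overlapped the controls, and the 4 Yy1 mutants lay above the 4 Dicer mutants. The difference was 0.44 in the Dicer mutants (1.36-fold, SE 0.107, adjusted p = 0.0205) and 0.70 in the Yy1 mutants (1.63-fold, SE 0.107, adjusted p = 0.00114). The Yy1 call held in all 21 alternatives (adjusted p 0.000183 to 0.0492), while the Dicer call was lost without Dicer mutant 2 (adjusted p = 0.0585), Dicer mutant 3 (0.0512) or Dicer mutant 4 (0.0613). The Dicer mutants were lower than the Yy1 mutants by 0.27, which was not called (adjusted p = 0.204).

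The remaining cytosolic genes were not called in any comparison. They are Dhx58 (LGP2, a regulator of the other RIG-I-like helicases), Mavs (the mitochondrial adaptor that both helicases signal through), Eif2ak2 (PKR, a kinase that stops translation on binding double-stranded RNA) and Zbp1 (a sensor of Z-form nucleic acids). Their differences from control ran from 0.00 to 0.09 in the Dicer mutants and from -0.05 to 0.04 in the Yy1 mutants. The intervals reached up to 0.38 for these genes in the Dicer mutants, or 1.31-fold. Adar, whose enzyme edits adenosine to inosine in double-stranded RNA and so keeps MDA5 from sensing the cell's own RNA, differed by -0.05 in the Dicer mutants and by -0.04 in the Yy1 mutants (adjusted p = 0.694 and 0.839).

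Of the 9 Toll-like receptors, only Tlr7, an endosomal receptor for single-stranded RNA, was called, and 0 were lower at an unadjusted p under 0.05 in either mutant. Tlr7 read 5.67, 5.93, 5.61 and 5.84 in the Dicer mutants, 5.53, 5.59, 5.52 and 5.24 in the Yy1 mutants, and 4.86, 5.03, 5.35 and 5.01 in the controls. The Dicer mutant arrays lay above all others, and Yy1 mutant 4 lay below control 3. The Dicer mutant difference was 0.70 (1.62-fold, SE 0.112, adjusted p = 0.00155) and held in all 20 alternatives in which the gene was tested. For the Yy1 mutants it was 0.41 (SE 0.112, adjusted p = 0.0460) and was called in 5 of 20 alternatives. The Yy1 call was lost without any 1 of 9 arrays (all but control 3, Yy1 mutant 4 and Dicer mutant 2, adjusted p 0.0510 to 0.135), and with quantile normalisation (0.0656) or equal array medians (0.0627). Tlr7 is X-linked and among the dimmest 30% of genes on these arrays, and with Yy1 mutants 2 and 3 and Dicer mutant 4 left out its difference was 0.67 in the Dicer mutants (adjusted p = 0.0167) and 0.32 in the Yy1 mutants (0.346).

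Tlr3, the endosomal receptor for double-stranded RNA, missed the threshold in the Dicer mutants (difference 0.38, SE 0.115, adjusted p = 0.0595). It was called in 6 of 21 alternatives, among them quantile normalisation (adjusted p = 0.0444), array weights (0.00910) and the fit without control 2 (0.0153). Its levels were 7.52, 7.69, 7.42 and 7.71 in the Dicer mutants, against 7.31, 7.50, 7.03 and 6.99 in the controls, so that control 2 lay within the range of the Dicer mutants. Tlr3 differed by 0.03 in the Yy1 mutants. Tlr8, a relative of Tlr7, differed by 0.37 in the Dicer mutants and 0.08 in the Yy1 mutants (adjusted p = 0.114 and 0.810). Tlr4, which recognises bacterial lipopolysaccharide, had every Dicer mutant array above the controls, but its difference of 0.25 was not called (adjusted p = 0.184). Differences of the bacterial receptors Tlr1, Tlr2, Tlr5 and Tlr6, and of Tlr9, the receptor for unmethylated DNA, ran from -0.02 to 0.18 in the Dicer mutants and from 0.05 to 0.19 in the Yy1 mutants, none of them called.

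Irf1, a transcription factor induced by interferon gamma, was the only called member of its group. It read 6.67, 6.61, 6.57 and 6.61 in the Dicer mutants, 6.48, 6.73, 6.55 and 6.38 in the Yy1 mutants, and 6.38, 6.29, 6.47 and 6.22 in the controls. The Dicer mutants were close together and above all controls, whereas the Yy1 mutants overlapped the controls. The Dicer mutant difference was 0.28 (SE 0.0799, adjusted p = 0.0484), just under the threshold, and was lost without any 1 of 9 arrays (all but control 3 and Yy1 mutants 2 and 4, adjusted p 0.0627 to 0.120). It was also lost with quantile normalisation (0.0660) and with equal array medians (0.0679).

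Irf9 and Stat2 belong to the DNA-binding complex of type I interferon signalling. Irf9 lay higher in every array of both mutants than in any control, with 7.66, 7.81, 7.37 and 7.37 in the Dicer mutants, 7.48, 7.92, 7.55 and 7.48 in the Yy1 mutants, and 7.20, 7.33, 7.05 and 7.25 in the controls. Its differences of 0.34 and 0.40 were not called (adjusted p = 0.101 in the Dicer mutants and 0.0660 in the Yy1 mutants). The Yy1 difference passed in 5 of 21 alternatives, among them the fit without Dicer mutant 2 (0.0495), and the Dicer difference in 1 of 21. Stat2 differed by 0.15 and 0.04. Irf3 and Irf7, the factors that switch on interferon genes after RNA sensing, differed by 0.05 and 0.06 in the Dicer mutants and by 0.00 and 0.12 in the Yy1 mutants. Irf8, which macrophages and dendritic cells need for their development, differed by 0.22 and 0.24 (adjusted p = 0.177 and 0.170), and its Yy1 difference was called without Yy1 mutant 4 (0.0433). A second, dimmer Irf8 probe set averaged 5.37 in the Dicer mutants, 5.45 in the Yy1 mutants and 5.45 in the controls and did not show these differences.

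Rsad2 and Bst2 were the called genes among the 14 interferon-stimulated genes, both in the Dicer mutants. Rsad2 encodes viperin, which makes a chain-terminating nucleotide against viral polymerases. It read 6.23, 6.43, 6.09 and 5.80 in the Dicer mutants, 5.59, 5.89, 5.63 and 5.16 in the Yy1 mutants, and 5.65, 5.37, 5.51 and 5.62 in the controls. The Dicer mutants lay above all controls, and Yy1 mutant 2 above Dicer mutant 4. The difference from control was 0.60 (1.52-fold, SE 0.150, adjusted p = 0.0226), and it was lost without control 2 (adjusted p = 0.0569), control 3 (0.0564), Dicer mutant 1 (0.0533) or Dicer mutant 2 (0.0738). The Yy1 mutants differed from the controls by 0.03 (adjusted p = 0.949). The Dicer mutants exceeded the Yy1 mutants by 0.57 (SE 0.150, adjusted p = 0.0439), which was lost without any 1 of 9 arrays (all but control 2, Yy1 mutant 2 and Dicer mutant 4, adjusted p 0.0550 to 0.126).

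Bst2 encodes tetherin, which holds budding virions at the cell surface, and it had the largest difference of the set and the widest spread. It read 7.47, 8.24, 6.79 and 8.12 in the Dicer mutants, 7.03, 6.93, 7.08 and 7.05 in the Yy1 mutants, and 7.17, 6.71, 6.65 and 6.75 in the controls. Dicer mutant 3 lay within the controls, while the other Dicer mutants lay above every array of the other genotypes. The difference was 0.84 (1.78-fold, SE 0.244, adjusted p = 0.0499). The call was lost in 16 of 21 alternatives. These included leaving out any 1 of 10 arrays (all but control 1 and Dicer mutant 3, adjusted p 0.0609 to 0.147). Quantile normalisation (0.0512), only the genotypes compared (0.116) and leaving out the 3 arrays with raised Y-linked genes (0.213) were others. The difference was 1.13 without Dicer mutant 3 (adjusted p = 0.00147). For the Yy1 mutants it was 0.20 and not called, and the difference between the mutants, 0.63, was not called either (adjusted p = 0.182) except without Dicer mutant 3 (0.00786).

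The other 12 interferon-stimulated genes were not called in the Dicer mutants, and 6 of them had positive and 6 negative differences. Ifit1, Ifit2 and Ifit3, which bind foreign RNA, differed by -0.15, -0.17 and 0.09. Isg15, a ubiquitin-like modifier, and Usp18, the protease that removes it, differed by 0.06 and -0.23. The antiviral GTPases Mx1 and Mx2 differed by 0.08 and -0.19, and the oligoadenylate synthetase family genes Oas2, Oas3 and Oasl2 by -0.07, -0.03 and 0.26. Xaf1, a pro-apoptotic gene, and Ifi35 had every Dicer mutant array above the controls, with differences of 0.39 (adjusted p = 0.0587) and 0.22 (0.114). Xaf1 was called in 6 of 21 alternatives, among them the fits without Yy1 mutant 4 (0.0179) and without Dicer mutant 2 (0.0330). A second Ifi35 probe set averaged 6.08 in the Dicer mutants, 6.29 in the Yy1 mutants and 6.17 in the controls, the opposite direction in the Dicer mutants. For these 12 genes, the 95% intervals reached no higher than 0.64, or 1.56-fold. Isg15, Mx1, Mx2, Oas2 and Oasl2 are among the dimmest 30% of genes on these arrays.

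Ifit1 was the gene with every Dicer mutant array below the controls. It read 5.57, 5.53, 5.61 and 5.43 in the Dicer mutants, 5.64, 5.62, 5.65 and 5.57 in the Yy1 mutants, and 5.65, 5.65, 5.77 and 5.68 in the controls. The gap was small, and its difference of -0.15 was not called (adjusted p = 0.148). Over the 38 genes, 10 had every Dicer mutant array above the controls and 1 every array below, where the shares over all genes were 7.50% and 8.45%. In the Yy1 mutants, 2 genes, Ddx58 and Irf9, had every array above and 0 every array below, against 5.57% and 7.05% of all genes. Between the mutants, every Dicer mutant array was above the Yy1 mutants for 1 gene, Tlr7, and below for 2, Ddx58 and Mx1, against 7.19% and 6.60% of all genes.

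In the Yy1 mutants 0 of the 14 interferon-stimulated genes were called, with 1 higher (Mx1, 0.22) and 1 lower (Ifit2, -0.36) at an unadjusted p under 0.05. Ifit2 read 6.30, 6.47, 6.25 and 6.10 in the Yy1 mutants, against 6.82, 6.80, 6.51 and 6.46 in the controls (adjusted p = 0.0942), and Yy1 mutant 2 lay above control 4. Oasl2 was below all controls on 3 Yy1 mutant arrays, at 4.90, 4.90 and 4.996, and at 5.61 on Yy1 mutant 2, against 5.56, 5.50, 5.22 and 5.45 in the controls. Its difference of -0.33 was called only without Yy1 mutant 2 (adjusted p = 0.0489) among the leave-one-out fits. Against the Yy1 mutants, the Dicer mutants were higher in Oasl2 by 0.59, which was not called (adjusted p = 0.0608). That difference passed in 6 of 20 alternatives, among them the fits without Yy1 mutant 2 (0.00656) and without Dicer mutant 1 (0.0213). Over the 14 genes, the intervals for Yy1 mutants reached up to 0.73, or 1.66-fold, in Bst2.

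**Figure D2:**
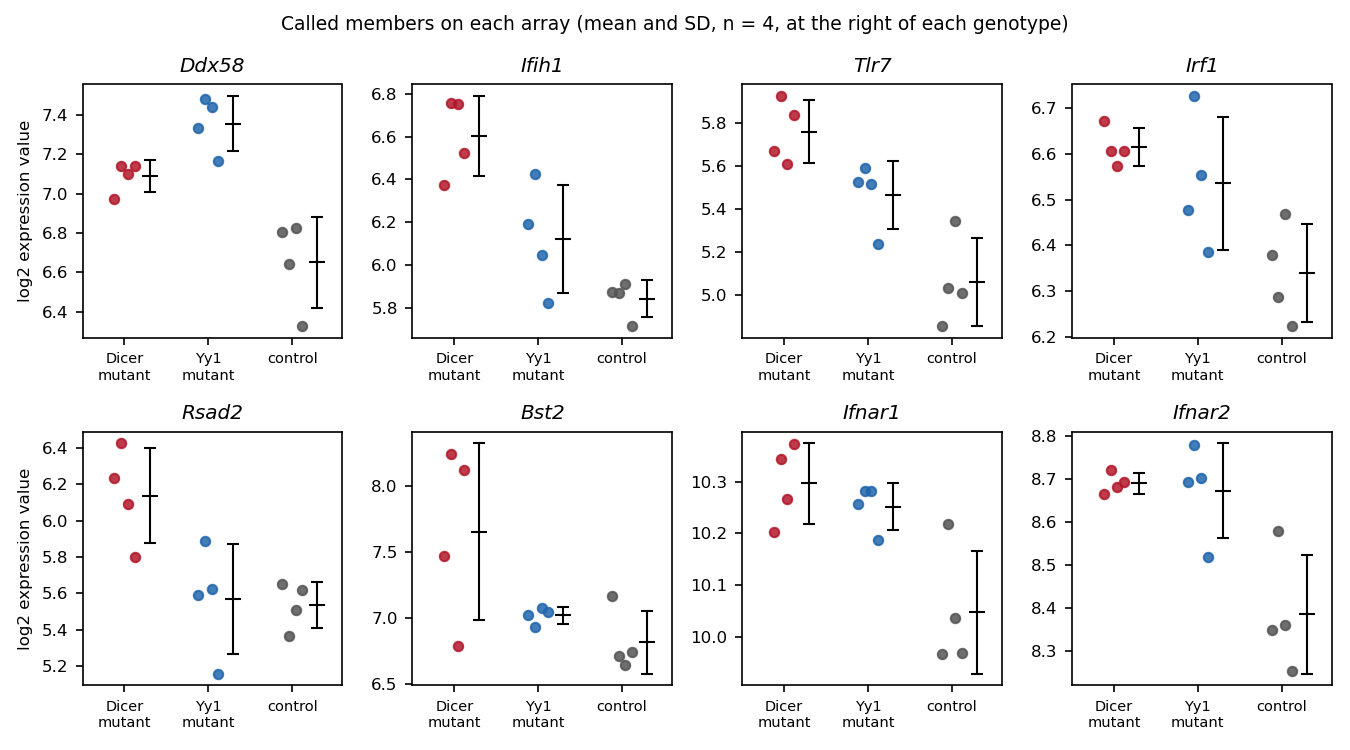
Log2 signal on each array of the 8 genes called in at least 1 comparison, with the mean and SD of 4 arrays per genotype. Ifih1, Ddx58, Tlr7, Rsad2, Irf1 and Ifnar2 have all Dicer mutant points above the controls, and Bst2 has 1 Dicer mutant point, at 6.79, among the controls.

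Both chains of the type I interferon receptor were higher in the Dicer mutants, by small amounts. Ifnar2 read 8.66, 8.72, 8.68 and 8.69 in the Dicer mutants, 8.69, 8.78, 8.70 and 8.52 in the Yy1 mutants, and 8.35, 8.58, 8.36 and 8.25 in the controls. Yy1 mutant 4 lay below control 2, and no other mutant array reached into the controls. The differences were 0.30 in the Dicer mutants (SE 0.0782, adjusted p = 0.0270) and 0.29 in the Yy1 mutants (SE 0.0782, adjusted p = 0.0433). The Dicer call was lost without any 1 of controls 1, 3 and 4 or Dicer mutants 2, 3 and 4 (adjusted p 0.0606 to 0.0748). The Yy1 call was lost without any 1 of 10 arrays (all but control 2 and Yy1 mutant 4, 0.0543 to 0.109) and with equal array medians (0.115).

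Ifnar1 read 10.20, 10.34, 10.27 and 10.37 in the Dicer mutants, 10.26, 10.28, 10.28 and 10.19 in the Yy1 mutants, and 9.97, 10.22, 10.04 and 9.97 in the controls. Control 2 lay above Dicer mutant 1 and Yy1 mutant 4. The Dicer mutant difference was 0.25 (SE 0.0710, adjusted p = 0.0446) and was lost without any 1 of 10 arrays (all but control 2 and Dicer mutant 1, adjusted p 0.0513 to 0.135) and with equal array medians (0.0750). The Yy1 mutant difference of 0.20 was not called (adjusted p = 0.117) but passed in 2 of 21 alternatives, without control 2 (0.0344) and with an intensity trend and robust prior (0.0393).

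Promoters of the called genes are shown because several hold the element through which interferon acts. The letters searched on both strands were GAAANNGAAA and its complement TTTCNNTTTC, the core of the interferon-stimulated response element, and TTCNNNGAA, the binding element of Stat dimers, in 250 bases before and 50 after each RefSeq start (GRCm38.p6). Of the 40 listed genes, 32 matched a promoter entry, and Tlr7 had none. The response element core was found in 11 of these 32 genes, against 3.99% of all 27025 genes with a promoter entry, and the Stat element in 12 of 32, against 9.55% of all genes. Counted by promoter, the core was in 11 of 40 promoters of these genes and in 3.44% of all 32851, and the Stat element in 12 of 40 and in 8.30%. Both elements can overlap, as they do in Bst2. The genes were listed by name for roles in interferon and RNA sensing, so these shares describe the list and not the mutants. A match is a description of the letters and does not show that a factor binds there.

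Sequences run 5′ to 3′ along the gene's strand, with the response element core in capitals. Of the called genes, Ddx58 (chr4:40239804-40239833, minus strand) and Ifih1 (chr2:62646206-62646235, minus strand) have it just past the start, at 2 and 32 bases, and 30 bases are shown. Rsad2 (chr12:26456453-26456602, minus strand) has it at position -120 from the start, and Bst2 (chr8:71537473-71537622, minus strand) has overlapping matches at positions -130 and -124. For these the last 150 bases before the start are shown.
Ddx58: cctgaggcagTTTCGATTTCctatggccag
Ifih1: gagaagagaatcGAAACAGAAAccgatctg
Rsad2: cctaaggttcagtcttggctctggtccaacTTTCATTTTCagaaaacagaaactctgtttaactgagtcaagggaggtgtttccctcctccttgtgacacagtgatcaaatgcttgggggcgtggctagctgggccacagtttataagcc
Bst2: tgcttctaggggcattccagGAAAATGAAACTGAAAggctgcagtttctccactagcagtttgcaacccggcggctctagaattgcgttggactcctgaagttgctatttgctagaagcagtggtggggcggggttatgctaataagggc

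Irf1 has no response element core in this window but a Stat element, in capitals below, at position -90 (chr11:53769864-53770013, plus strand). The receptor chains Ifnar1 and Ifnar2 likewise held a Stat element and no response element core.
Irf1: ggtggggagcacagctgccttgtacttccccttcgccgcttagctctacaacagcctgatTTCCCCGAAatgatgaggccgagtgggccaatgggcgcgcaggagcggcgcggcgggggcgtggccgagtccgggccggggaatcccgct

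Ifit1 (chr19:34640739-34640888, plus strand) and Isg15 (chr4:156200819-156200968, minus strand) are shown for contrast, since neither was called while their promoters hold 2 and 3 matches, in capitals. Stat2, Ifit3, Oas3, Eif2ak2 and Tlr6 also held the core and were not called in either mutant.
Ifit1: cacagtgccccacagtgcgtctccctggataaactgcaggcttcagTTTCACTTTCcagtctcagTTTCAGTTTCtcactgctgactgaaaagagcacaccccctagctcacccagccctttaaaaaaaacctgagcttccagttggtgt
Isg15: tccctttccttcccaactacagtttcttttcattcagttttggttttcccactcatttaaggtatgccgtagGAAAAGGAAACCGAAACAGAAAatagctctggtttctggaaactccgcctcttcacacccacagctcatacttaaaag

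Other genes of the pathway were followed as a second list of 75 genes, of which 65 were measured. This list too was chosen with earlier results of these data known, so its counts beside the shares of all genes are a description only. In the Dicer mutants 16 of the 65 were higher than in the controls and 0 were lower, where 4.78% of all genes were higher and 3.97% lower. At an unadjusted p under 0.05, 23 were higher and 3 lower. The called genes include 5 of 20 signalling genes: Trim25 (0.50, adjusted p = 0.000811), the ubiquitin ligase that activates RIG-I, Unc93b1 (0.72, 0.00170), which carries Toll-like receptors to the endosome, Ly96 (0.67, 0.00362), the lipopolysaccharide-binding partner of Tlr4, the receptor-bound kinase gene Tyk2 (0.31, 0.00996) and Irf2 (0.41, 0.0207). The Irf2 call was lost without any 1 of controls 1 and 3 or Dicer mutants 2 and 4 (adjusted p 0.0521 to 0.0685), and with Yy1 mutants 2 and 3 and Dicer mutant 4 left out together (0.105). Adarb1, the second editing enzyme gene, was higher by 0.38 (0.00197), while Prkra and Tarbp2, partners of Dicer and of PKR, were not called.

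The further interferon-stimulated genes called in the Dicer mutants were 8 of 30, and they include the interferon-inducible GTPases Gbp7 (0.94, adjusted p = 0.000564), Igtp (0.60, 0.000128), Irgm1 (0.57, 0.0114) and Irgm2 (0.51, 0.0364), which are best known as targets of interferon gamma. Rtp4 (0.64, 0.000929), Ifi27 (0.54, 0.00572), Parp14 (0.42, 0.0177) and B2m (0.31, 0.0115), the light chain of MHC class I, complete them. The Irgm2 call was lost without any 1 of controls 1, 2 and 4 or Dicer mutants 2 and 3 (adjusted p 0.0572 to 0.107) and the Parp14 call without control 1 (0.0544). Among the ligands and other receptors, Ifngr1 (0.33, 0.0132), a chain of the interferon gamma receptor, and Il10rb (0.57, 0.000789), a chain shared by receptors for interleukin 10 and interferon lambda, were higher.

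The 8 interferon genes on the list, Ifnb1, Ifna2, Ifna4, Ifnk, Ifne, Ifng, Ifnl2 and Ifnl3, were not called in either mutant against control. Ifnb1 read 3.43 to 3.80 in the Dicer mutants, 3.70 to 3.83 in the Yy1 mutants and 3.73 to 3.99 in the controls, and its difference was -0.19 in the Dicer mutants (adjusted p = 0.209). Those values lie under 5.48, the mean that marks the dimmest 30% of genes, and cannot be told from background. The missing call thus does not show whether Ifnb1 changed. Ifna4 differed by 0.12 in the Dicer mutants and by -0.45 in the Yy1 mutants (adjusted p = 0.659 and 0.0586). The Yy1 difference of Ifna4 was called in 7 of 21 alternatives, among them the fits without control 1 (adjusted p = 0.0115) and without Dicer mutant 2 (0.0470).

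Over all genes, the Yy1 mutants had 2.77% called higher and 3.84% lower, and the pathway counts lay near these shares. Of the 65 pathway genes 3 were higher, Ly96 (0.76, adjusted p = 0.00177), Unc93b1 (0.55, 0.0110) and Ifitm3 (0.47, 0.00403), which blocks viral entry. Another 3 were lower, the GTPase gene Iigp1 (-1.07, 0.000610), the nucleotide hydrolase gene Samhd1 (-0.34, 0.0193) and Cmpk2 (-0.44, 0.0413), the genomic neighbour of Rsad2. The Samhd1 call was lost without control 1 (adjusted p = 0.0551) or control 4 (0.0507), and the Cmpk2 call without any 1 of 10 arrays (all but control 1 and Yy1 mutant 2, 0.0511 to 0.126). Without Yy1 mutants 2 and 3 and Dicer mutant 4 together, the calls of Unc93b1 (0.42, adjusted p = 0.168), Ifitm3 (0.35, 0.0999), Samhd1 (0.129) and Cmpk2 (0.139) were lost. Iigp1 read 7.43, 7.27, 7.42 and 7.40 in the Yy1 mutants, against 7.99, 8.46, 8.41 and 8.96 in the controls. The Yy1 mutants were thus close together and below every control, and the Dicer mutants, at 8.17 to 8.43, lay within the controls.

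Between the mutants, 9 of the 65 pathway genes were higher in the Dicer mutants and 0 were lower, where 3.39% of all genes were higher and 1.57% lower. At an unadjusted p under 0.05, 20 were higher and 3 lower. The 9 were Iigp1 (0.91, adjusted p = 0.00260), Irgm1 (0.65, 0.00723), Trim25 (0.64, 0.000179), Ifna4 (0.57, 0.0226), Gbp7 (0.53, 0.0345), Rtp4 (0.49, 0.00720), Igtp (0.45, 0.00174), Il10rb (0.43, 0.00722) and Irf2 (0.39, 0.0382). The Gbp7 call was lost without any 1 of Yy1 mutants 1 and 4 or Dicer mutants 2, 3 and 4 (adjusted p 0.0710 to 0.108). That of Ifna4 was lost without any 1 of Yy1 mutants 1, 3 and 4 or Dicer mutants 2 and 3 (0.0574 to 0.0688), and that of Irf2 without any 1 of control 3, Yy1 mutants 1, 2 and 4 or Dicer mutants 2 and 4 (0.0548 to 0.113). With the 3 arrays of raised Y-linked signal left out together, these 3 calls were lost (0.0823 to 0.241), as were those of Igtp (0.41, 0.0602) and Iigp1 (0.91, 0.0654).

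**Figure D3:**
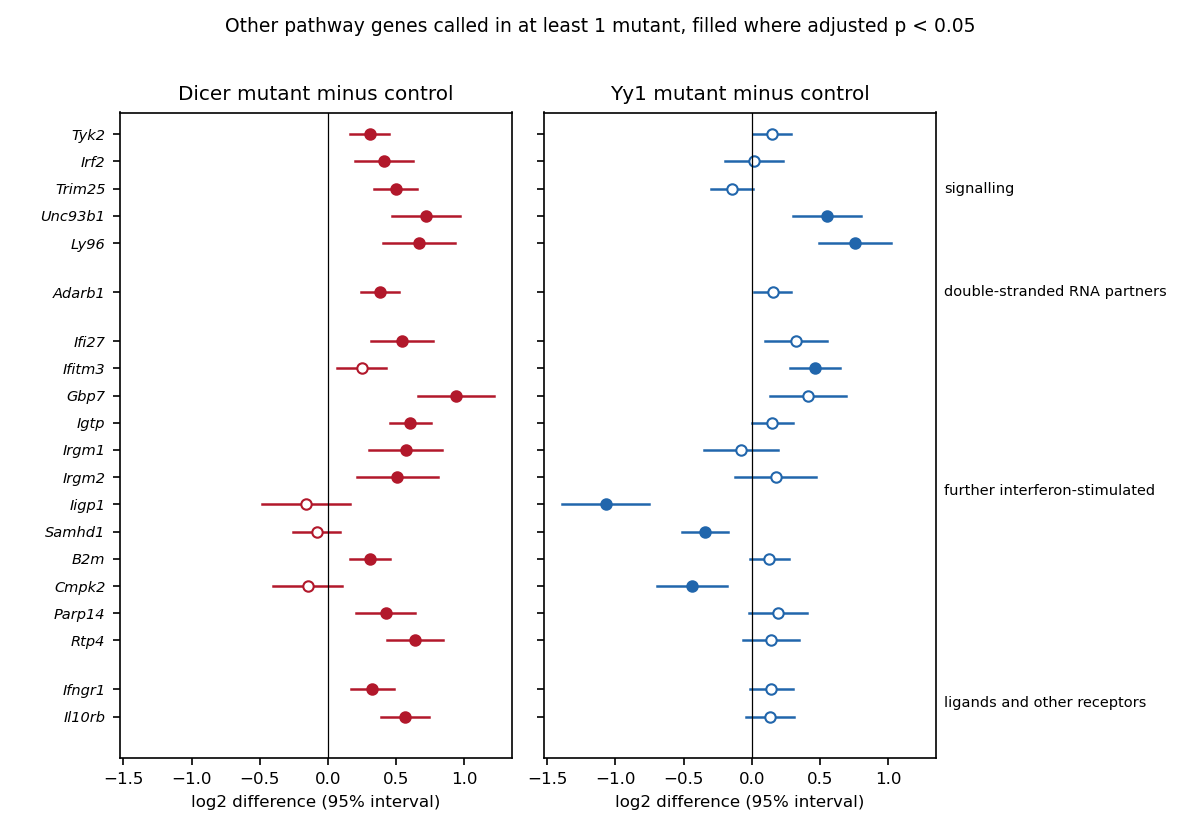
Log2 difference with its 95% interval of the other pathway genes called in at least 1 mutant against control, for Dicer mutants minus controls and Yy1 mutants minus controls, with filled points where the adjusted p was under 0.05. Points for the Dicer mutants are filled only to the right of 0, while Iigp1, Samhd1 and Cmpk2 are filled to the left of 0 in the Yy1 mutants.

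Markers of immune, vascular and other cell types also differed between the genotypes. In the Dicer mutants 13 of 16 macrophage markers were called higher and 0 lower, and in the Yy1 mutants 10 of 16 were higher. Beside these and the marker counts below, 4.78% of all genes were called higher and 3.97% lower in the Dicer mutants. The shares in the Yy1 mutants were 2.77% and 3.84%. The summed signal of the macrophage markers ran from 11.69 to 11.92 in the Dicer mutants, 11.52 to 11.73 in the Yy1 mutants and 11.08 to 11.19 in the controls on the log2 scale, with no overlap of either mutant with the controls. All 6 endothelial markers were higher in the Dicer mutants (12.97 to 13.07) and 0 of 6 were called in the Yy1 mutants (12.56 to 12.81), against 12.49 to 12.72 in the controls.

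Of the mast cell markers 3 of 8 were higher in the Dicer mutants and 1 of 8 in the Yy1 mutants, and their sum was 10.54 to 11.01 in the Dicer mutants, 9.94 to 10.19 in the Yy1 mutants and 9.68 to 10.04 in the controls. The 3 in the Dicer mutants were Hdc (3.63), Cpa3 (0.70) and Kit (0.51). The other 5, Cma1 (0.29), Tpsb2, Ms4a2 (0.00), Mcpt4 (0.07) and Fcer1a (-0.28), were not called. The median difference over the 8 was 0.30. Mesenchymal markers were higher for 5 of 6 genes in each mutant, with sums of 13.07 to 13.33 in the Dicer mutants and 13.10 to 13.29 in the Yy1 mutants, against 12.73 to 12.81 in the controls. The 9 epithelial markers, 7 of them lower in each mutant, summed to 11.97 to 12.28 in the Dicer mutants and 11.48 to 11.85 in the Yy1 mutants, against 12.57 to 13.04 in the controls. The 2 not called in the Dicer mutants were Epcam (0.11, every array above the controls) and Cdh1 (-0.32, every array below). For plasmacytoid dendritic cells, a main source of type I interferon, the 5 markers were Siglech, Bst2, Tcf4, Irf8 and Ly6d. Their sum was 10.06 to 10.29 in the Dicer mutants, 10.10 to 10.19 in the Yy1 mutants and 9.98 to 10.05 in the controls. In the Dicer mutants only Bst2 was called, and the defining marker Siglech was not. The median difference of the 5 markers was 0.05 there. The lowest was -0.18, and 1 of the 5 had every Dicer mutant array below the controls. In the Yy1 mutants 0 of the 5 were called. Markers of neutrophils and of B, T and NK cells had 0 calls in either mutant against control. How much of the differences in the sensors, receptors and interferon-stimulated genes comes with these cell type markers was not tested.

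**Figure D4:**
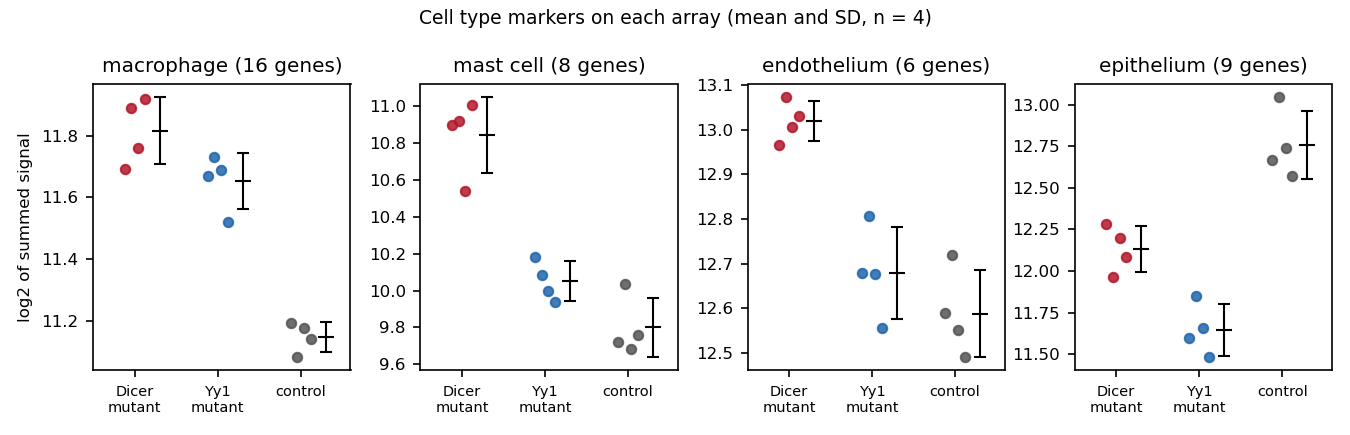
Log2 of the summed signal of macrophage, mast cell, endothelial and epithelial markers on each array, with the mean and SD of 4 arrays per genotype. Macrophage sums of both mutants lie above all controls (11.08 to 11.19), endothelial and mast cell sums stand apart from the controls in the Dicer mutants, and epithelial sums of both mutants lie below all controls.

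Without the 3 arrays on which Y-linked genes were raised, 3 of the 38 genes were called in the Dicer mutants (4.40% of all genes), 1 in the Yy1 mutants (2.73%) and 1 between the mutants (1.96%). Ifih1, Tlr7 and Rsad2 were the 3 for the Dicer mutants and Ddx58 was the 1 for the Yy1 mutants. Ddx58 had a difference of 0.42 in the Dicer mutants in that fit (adjusted p = 0.0862).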

How the data were processed

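Total RNA of mouse lungs at E14.5 was hybridised to single-channel biotin-labelled arrays, per the labels' protocols. The deposited values are log2 signals, 1 column per array, used with no further normalisation, and the array medians lay between 5.99 and 6.08. Base 2 was inferred from their range of 1.10 to 13.58. How probes were summarised and normalised, with which software and on which array design, is not given in the sources used here. Precision is limited by having 4 arrays per genotype, and 0 columns were left unmapped.

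Probe sets with exactly 1 annotated symbol were kept (23521 of 41345), and for the 1082 genes with several the one with the highest mean stood for the gene. The listed Tmem173 and Mb21d1 were matched as Sting1 and Cgas through the older symbols in RefSeq. All 12 arrays were fitted in 1 limma model (limma 3.58.1, R 4.3.3, lmFit and eBayes, 9 residual degrees of freedom, two-sided), with Benjamini-Hochberg adjustment over the 22180 genes of each comparison and calls at an adjusted p under 0.05. Differences are on the log2 scale with their model SE and 95% interval, and levels have the SD over 4 arrays. The fit was tested on simulated data. Tables (pandas 2.3.3, numpy 2.4.6) and plots (matplotlib 3.10.9) were made in Python 3.11.15.

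The members, lists and tests were chosen with earlier results of these data known. Every measured member is accounted for: those called in any comparison are named with each array's value, the others by role, and other pathway genes where called. As alternatives, arrays were shifted to equal medians or quantile normalised, the dimmest 30% of genes (mean under 5.48) were dropped, probe sets of a gene were averaged, eBayes used a robust prior with an intensity trend, only the genotypes compared were fitted, arrays were weighted, and the replicate number entered as a block. Each array was also left out in turn, as were the 3 arrays with raised Y-linked signal together. Promoter sequences and starts are RefSeq's (GRCm38.p6).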

Additional observations from a re-analysis of the deposited data

Results flagged for a closer look

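On some arrays a gene stood apart from the other arrays of its genotype, with a gap to the nearest that passed Dixon's critical value for 4 values. This was so in 13 of 177 groups of a gene and a genotype (7.34%), where chance gives about 1 in 20. Among the genes of the set, Adar was low in Dicer mutant 3 (7.54, against 7.66 to 7.67 on the other Dicer mutant arrays), Stat2 was low in Dicer mutant 1 (7.46, against 7.73 to 7.78) and Ifit3 was low in Dicer mutant 2 (6.41, against 6.85 to 6.92). Irf9 and Oasl2 were high in Yy1 mutant 2, at 7.92 (others 7.48 to 7.55) and 5.61 (others 4.90 to 4.996). In the controls, Mavs was high in control 2 (8.92), Tlr9 was high in control 4 (6.20) and Ifit3 was low in control 1 (6.38).

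Of the other pathway genes, Ifngr1 (8.30) and Ly96 (8.75) were low in Yy1 mutant 2. Trim25 (7.75) and Tyk2 (7.33) were high in Yy1 mutant 3, and Trim25 was low in control 4 (7.67). Yy1 mutant 2 accounts for 4 of the 13 values, and it is an array with raised Y-linked genes.

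A second group of results stood out because the Dicer and the Yy1 mutants differed from each other in the direct test, all of them higher in the Dicer mutants on the log2 scale: Ifih1 by 0.48, Rsad2 by 0.57, Gbp7 by 0.53, Igtp by 0.45, Iigp1 by 0.91, Irgm1 by 0.65, Rtp4 by 0.49, Ifna4 by 0.57, Il10rb by 0.43, Irf2 by 0.39 and Trim25 by 0.64. Their adjusted p-values ran from 0.000179 (Trim25) to 0.0439 (Rsad2). They are 2 of the 38 genes and 9 of the 65 other pathway genes, where 3.39% of all genes were called higher. Of 21 alternatives, 8 lost the call of Ifih1, 10 that of Rsad2, 9 that of Irf2 and 6 each those of Gbp7 and Ifna4. The calls of Igtp and Iigp1 were each lost in 1. Those of Irgm1, Rtp4, Il10rb and Trim25 held in every alternative in which the gene was tested.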

How the results depend on the processing

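Under 21 alternative settings the 38 genes gave 2370 values over the 3 comparisons. Of these, 2112 kept the direction and the side of the threshold, 105 called values lost the call, 34 uncalled values gained one and 0 called values turned direction. Another 119 uncalled values changed sign, none of them with a difference over 0.09 in size as reported. The number of genes called in the Dicer mutants, 8, was 3 to 7 with 1 array left out and 3 without Yy1 mutants 2 and 3 and Dicer mutant 4, where Y-linked genes were raised. In the Yy1 mutants, 3 calls became 1 to 4 with 1 array left out, 1 with equal array medians, 5 with an intensity trend and robust prior, 1 with only the genotypes compared and 1 without those 3 arrays. Between the mutants, 2 calls became 0 to 3 with 1 array left out, 5 with array weights and 1 without those 3. With only the genotypes compared, 0 were called by limma, with 11 at an unadjusted p under 0.05.

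The labels share replicate numbers across genotypes without naming a litter or batch, and deviations of same-numbered arrays correlated at -0.161 to 0.19. Whether the numbers pair the specimens cannot be told from these values. With the replicate block, 7 genes were called in the Dicer mutants, 4 in the Yy1 mutants (3 higher, and Ifit2 lower) and 3 between the mutants. Ifih1 and Tlr7 in the Dicer mutants and Ddx58 in the Yy1 mutants were called in every setting in which they were tested. The deposited values carry no detection call, so a dim gene such as Isg15 or Mx1 cannot be told from background.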

Other observations

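Bst2 was lowest in Dicer mutant 3 among the Dicer mutants, and so was the mast cell marker Hdc, which was picked out after its values were seen. Hdc read 9.45, 9.61, 8.29 and 9.69 in Dicer mutants 1 to 4, against 5.35, 6.04, 5.47 and 5.65 in controls 1 to 4. Dicer mutant 3 was the lowest Dicer mutant in the mast cell sum, at 10.54, which includes Hdc. The same held for the plasmacytoid dendritic cell sum, at 10.06, which includes Bst2. These sums are therefore not observations separate from Hdc and Bst2. Whether these values are connected was not tested.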
